A study of Mus musculus with 9 samples.

Results

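The comparison set out here is that of beige adipocytes grown from F1 hybrid mice with beige adipocytes grown from 129 mice, and it used the 6 libraries of those groups out of 9 in the study. Beige adipocytes are fat cells of subcutaneous depots that can be induced to burn fuel for heat, and they were grown here from the stromal vascular fraction of inguinal fat, the cells left when its fat cells are removed. The 129 group was the inbred strain 129X1/SvJ, the B6 strain was C57BL6/J as the labels spell it, and the F1 group was the offspring of a cross between them. Each group had 3 libraries of poly(A) RNA at day 7 of differentiation. All groups received the same agents at confluence (isobutylmethylxanthine, indomethacin, dexamethasone, insulin, the thyroid hormone T3 and rosiglitazone in fetal bovine serum) and then serum with insulin, T3 and rosiglitazone. The direction of the cross is not in the labels, nor is the animal or culture behind each library, so the spread that the p-values rest on is that between libraries, which may be technical. Of 24013 gene symbols, 11322 reached an RPKM of 1 in 3 or more of these 6 libraries and were tested. RPKM is the number of reads per kilobase of exon, scaled to the reads assigned to genes in the library.

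An F1 hybrid carries a chromosome set from each parental strain, so in its cells a B6 copy of each autosomal gene stands where 129 cells have a second 129 copy, and both copies meet the same nuclear proteins. Brown and beige fat cells owe their heat production to UCP1, a protein of the inner mitochondrial membrane that lets protons return without making ATP, and they are rich in mitochondria and in enzymes that oxidise fatty acids. NFIA, the transcription factor in the title of the study, is known to bind enhancers of the brown fat programme together with PPARγ. Strain 129 is known for readier browning of its white fat than B6.

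All libraries had high levels of adipocyte genes. Fabp4, a fatty acid carrier of fat cells, was at 27781, 25460.2 and 27503 RPKM in the 129 libraries and 29618, 32169 and 32248 in F1. Adipoq, the hormone adiponectin, was at 1288, 1259 and 1319 in 129 and 1389, 1324 and 1337 in F1, and Plin1, the coat protein of lipid droplets, at 417, 467 and 469 in 129 and 483, 473 and 471 in F1. None of these 3 passed the test (0.185, 0.422 and 0.345 as adjusted p from limma). No lymphocyte marker reached the level for testing, and the summed level of those 12 markers was 0.348 to 0.621 RPKM over the 6 libraries, with Cd3g, Cd3d and Cd79b at 0 in each. Y-linked genes were expressed in every library, with Eif2s3y at 57.7, 53.5 and 54.9 RPKM in 129 and 58.9, 56.5 and 58.7 in F1, while Xist stood at 0.0146 to 0.0294. Depth was 23710910 to 28473088 assigned reads in 129 and 39686992 to 53410960 in F1. Every F1 library was deeper than every 129 library, so depth and strain cannot be told apart.

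F1 cells differed from 129 cells in 3297 of the 11322 genes (29.1%) at an adjusted p under 0.05. Of these, 1409 genes (12.4% of those tested) were higher in F1 and 1888 (16.7%) were lower. Most of the differences were small: 83.8% of the called genes differed by less than 0.5 on the log2(RPKM + 1) scale, the median size among called genes was 0.28, and the median over all genes tested was -0.01. Differences of at least 1 on that scale were found in 80 called genes, 33 higher and 47 lower. The 3 F1 values lay entirely above or below the 3 129 values in 5050 genes (44.6%). All differences below are F1 minus 129 on the log2(RPKM + 1) scale with their standard error, the levels are RPKM, each group has 3 libraries, and B6 levels are given only for orientation, since B6 took no part in the test.

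The largest rises in F1 included genes that 129 cells barely expressed. Sorl1, a sorting receptor that moves lipoprotein receptors and other cargo between endosomes and the Golgi, had the largest difference. It stood at 0.2605, 0.289 and 0.298 RPKM in 129 and at 8.29, 9.69 and 10.2 in F1 (log2 difference 3.02 ± 0.07, adjusted p = 8.96e-08), and at 32.3, 31.98 and 31.01 in B6. The gene lies on chromosome 9, 41776572 to 41932372 on the reverse strand (mm9). Cela1, an elastase of the serine protease family, was at 1.9, 1.33 and 1.41 RPKM in 129, 16.6, 17.8 and 15.01 in F1 and 19.5, 23.2 and 20.1 in B6 (log2 difference 2.78 ± 0.09, adjusted p = 2.07e-07). Pttg1, the securin that delays the separation of sister chromatids until anaphase, rose from 1.62, 1.23 and 1.24 RPKM in 129 to 9.89, 7.79 and 8.98 in F1 (log2 difference 2.06 ± 0.09, adjusted p = 8.89e-07), with 13.5, 13.7 and 12.5 in B6. For these 3 genes the F1 values lay between those of both strains with no overlap, and the F1 mean was 0.296 of the B6 mean for Sorl1, 0.786 for Cela1 and 0.672 for Pttg1. Adh1, an alcohol dehydrogenase that also oxidises retinol, was abundant in all groups and rose 2.598-fold, from 55.9, 53.6 and 56.6 to 154, 137 and 140.2 RPKM (log2 difference 1.36 ± 0.05, adjusted p = 5.22e-07), with 236, 244 and 254 in B6.

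The other 8 of the 12 largest rises had differences between 1.28 and 1.67. They included Pdpn, the membrane glycoprotein podoplanin, with a mean of 3.58 RPKM in 129, 11.4 in F1 and 21.99 in B6, and Col28a1, a collagen chain, with 8.04, 21.7 and 48.3. Fbxo44, a substrate receptor of ubiquitin ligases, had means of 1.08, 4.26 and 7.27 RPKM. Podnl1, a small leucine-rich proteoglycan, had 0.326, 3.13 and 4.398. Cdsn, the adhesion protein corneodesmosin, and Fndc1, a fibronectin-domain protein, stood higher in F1 than the mean of either strain: Cdsn was at 3.61, 3.61 and 3.67 in F1 against 0.361, 0.564 and 0.457 in 129 and 1.63, 2.64 and 1.57 in B6, and Fndc1 at 8.37, 10.9 and 9.42 in F1 against 3.31, 4.01 and 2.72 in 129 and 5.79, 9.42 and 4.67 in B6. The F1 and B6 values of Fndc1 overlapped and those of Cdsn did not.

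The largest falls included secreted and matrix proteins. Sfrp4, a secreted antagonist of Wnt ligands, stood at 25.7, 20.9 and 23.2 RPKM in 129 and 4.97, 4.41 and 4.56 in F1 (log2 difference -2.10 ± 0.07, adjusted p = 3.06e-07), and at 3.68, 3.87 and 3.21 in B6. Igfbp5, which binds insulin-like growth factors, fell from 83.3, 70.5 and 75.1 RPKM in 129 to 16.4, 17.8 and 18.2 in F1 (log2 difference -2.06 ± 0.07, adjusted p = 2.07e-07), with 9.04, 9.71 and 8.82 in B6. Cyp7b1, the oxysterol 7α-hydroxylase, fell from 75.3, 66.8 and 63.8 to 17.9, 18.2 and 17.8 (log2 difference -1.87 ± 0.06, adjusted p = 2.07e-07), with 12.7, 11.01 and 11.2 in B6. In all 3 genes the F1 values were nearer to B6 than to 129, and none of them reached down to a B6 value. Col6a5, a collagen VI chain, was at 8.32, 6.97 and 7.46 RPKM in 129, 1.33, 1.46 and 1.43 in F1 and 0.122, 0.0506 and 0.0799 in B6 (log2 difference -1.83 ± 0.07, adjusted p = 3.45e-07).

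Il1rn, the antagonist of the interleukin 1 receptor, fell from 18.4, 16.7 and 15.3 RPKM in 129 to 4.25, 4.42 and 3.64 in F1 (log2 difference -1.80 ± 0.08, adjusted p = 8.86e-07). C7, a component of the membrane attack complex, had means of 9.86 RPKM in 129, 3.04 in F1 and 3.702 in B6, and Vtn, vitronectin, which binds that complex, had 7.96, 2.11 and 1.42. The others included Gdf10, a ligand of the BMP family (means of 48.9, 17.0 and 16.5 RPKM in 129, F1 and B6), Aldh1a2, which makes retinoic acid (16.7, 5.499 and 3.77), the neurotrophin receptor Ngfr (22.3, 7.598 and 4.68) and the X-linked copper-dependent iron oxidase Heph (18.6, 6.17 and 3.75). The differences of these 4 genes and of C7 lay between -1.47 and -1.43. For C7 all 3 F1 values, 2.84, 3.297 and 2.99, were also below all 3 B6 values, 3.86, 3.55 and 3.701.

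**Figure D1:**
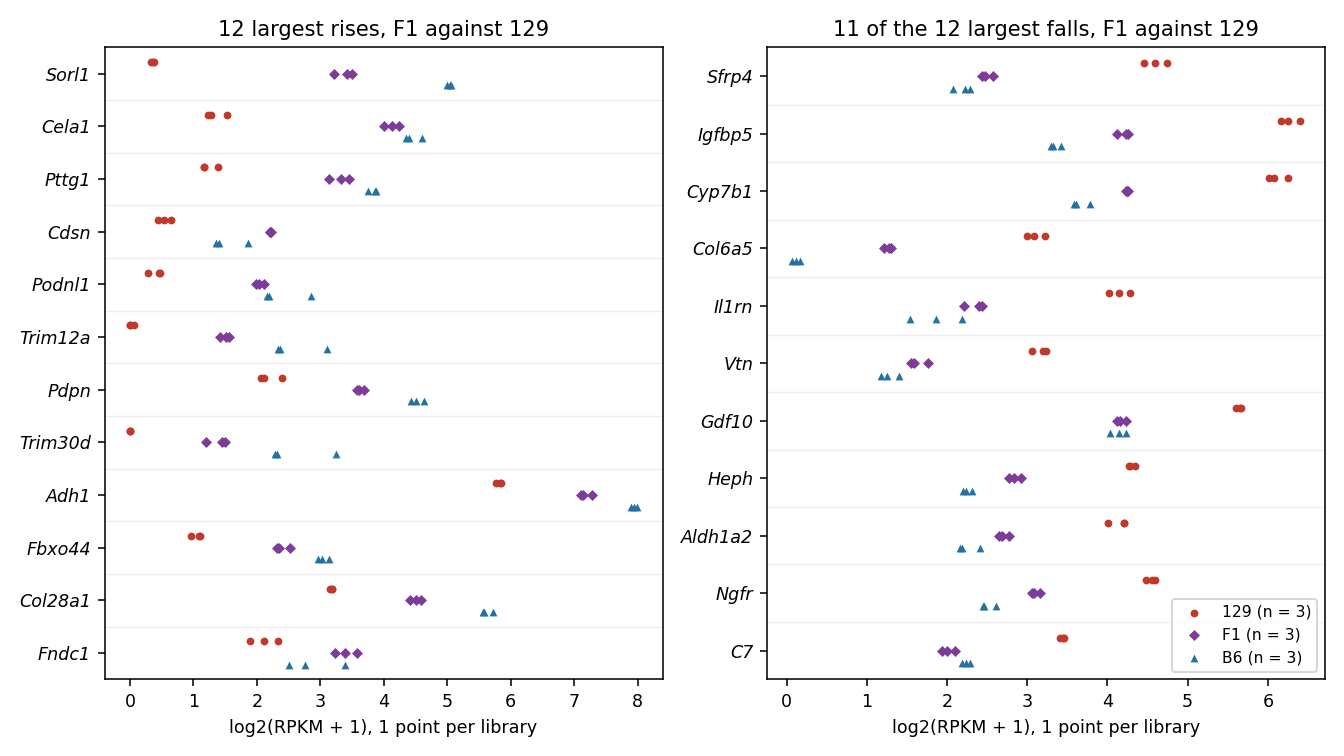
The 12 largest rises (left) and 11 of the 12 largest falls (right) of F1 against 129, with 1 point per library at log2(RPKM + 1) for 129, F1 and B6 (n = 3 each). The genes were chosen to have no overlap between F1 and 129, so the F1 points are apart from the 129 points in every row. Sorl1 shows the widest gap, from 0.282 RPKM on average in 129 to 9.41 in F1.

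More brown fat genes were higher than lower in F1, while Ucp1 itself was lower. Of the 23 tested genes of brown fat thermogenesis, 13 were higher (56.5%, against 12.4% over all genes) and 3 were lower (13.0%, against 16.7%). The other 7 did not pass, and the median difference of the list was 0.31 against -0.01 over all genes. Cox8b, a muscle and brown fat form of a cytochrome c oxidase subunit, was at 21.1, 22.3 and 19.9 RPKM in 129 and 48.7, 42.8 and 44.5 in F1 (log2 difference 1.07 ± 0.06, adjusted p = 2.92e-06). Cox7a1, another such subunit, was at 187, 209.7 and 222 in 129 and 352, 351 and 314 in F1 (log2 difference 0.72 ± 0.07, adjusted p = 0.000113). Cidea, a lipid droplet protein typical of brown fat, was at 11.8, 14.3 and 12.1 in 129 and 19.5, 19.1 and 22.1 in F1 (log2 difference 0.63 ± 0.08, adjusted p = 0.000354). None of these groups overlapped, and the F1 values of all 3 genes were also above every B6 value: B6 had 40.3, 40.5 and 38.1 for Cox8b, 187, 209.8 and 195 for Cox7a1 and 6.33, 7.05 and 7.401 for Cidea. The coactivator Ppargc1a was at 5.54, 5.02 and 5.63 in 129 and 6.71, 6.87 and 8.23 in F1 (log2 difference 0.37 ± 0.07, adjusted p = 0.00552). Its relative Ppargc1b was at 7.47, 9.27 and 8.11 in 129 and 10.5, 11.7 and 12.9 in F1 (log2 difference 0.45 ± 0.08, adjusted p = 0.00353). The lipid sensor Ppara was at 8.61, 9.43 and 9.52 in 129 and 13.4, 13.9 and 16.3 in F1 (log2 difference 0.60 ± 0.07, adjusted p = 0.000298), and the early B cell factor Ebf2 at 9.59, 10.01 and 9.73 in 129 and 12.6, 11.6 and 13.2 in F1 (log2 difference 0.32 ± 0.05, adjusted p = 0.00188). Nrg4, a growth factor that brown fat secretes, Letmd1, a mitochondrial inner membrane protein, and Kcnk3, a potassium channel, rose by 0.52 ± 0.06, 0.55 ± 0.06 and 0.49 ± 0.06. Prdm16, a transcriptional coregulator of brown fat identity, was low, at 0.917, 1.18 and 0.999 RPKM in 129 and 1.13, 1.37 and 1.39 in F1, and did not pass (log2 difference 0.18 ± 0.08, adjusted p = 0.123).

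The 3 members that fell were Elovl3, Ucp1 and Dio2. Ucp1 (chromosome 8, 85814247 to 85822355 on the forward strand, mm9) was at 60.5, 64.4 and 63.03 RPKM in 129 and 52.3, 50.6 and 54.2 in F1, and its highest F1 value was below its lowest 129 value. The difference was -0.25 ± 0.04 (adjusted p = 0.00266 from limma), or 0.836 times the 129 mean, and the exact two-sided permutation test gave p = 0.1, the smallest that 3 libraries against 3 can give. In B6 the gene was at 9.39, 10.7 and 9.51 RPKM, so F1 stood much nearer to 129. Elovl3, which lengthens fatty acids in brown fat, was at 150.3, 128 and 148 in 129 and 102, 105 and 102 in F1 (log2 difference -0.45 ± 0.06, adjusted p = 0.000647). Dio2, which activates thyroid hormone, was low, at 2.298, 2.55 and 2.52 in 129 and 1.96, 1.94 and 2.16 in F1 (log2 difference -0.19 ± 0.06, adjusted p = 0.0386), and did not pass when F1 replicate 1, F1 replicate 2, 129 replicate 2 or 129 replicate 3 was left out. Among the other uncoupling proteins, Ucp2 had the larger fall, from 182, 189 and 182 RPKM in 129 to 109, 107 and 107 in F1 (log2 difference -0.77 ± 0.04, adjusted p = 2.39e-06), with 19.3, 22.6 and 18.7 in B6. Slc25a30, a mitochondrial carrier of the same family, fell from 7.14, 8.36 and 7.17 to 5.35, 5.63 and 5.25 (log2 difference -0.41 ± 0.06, adjusted p = 0.00121). Ucp3 was at 3.83, 4.06 and 4.31 in 129 and 4.72, 4.47 and 4.196 in F1 and did not pass (adjusted p = 0.204).

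**Figure D2:**
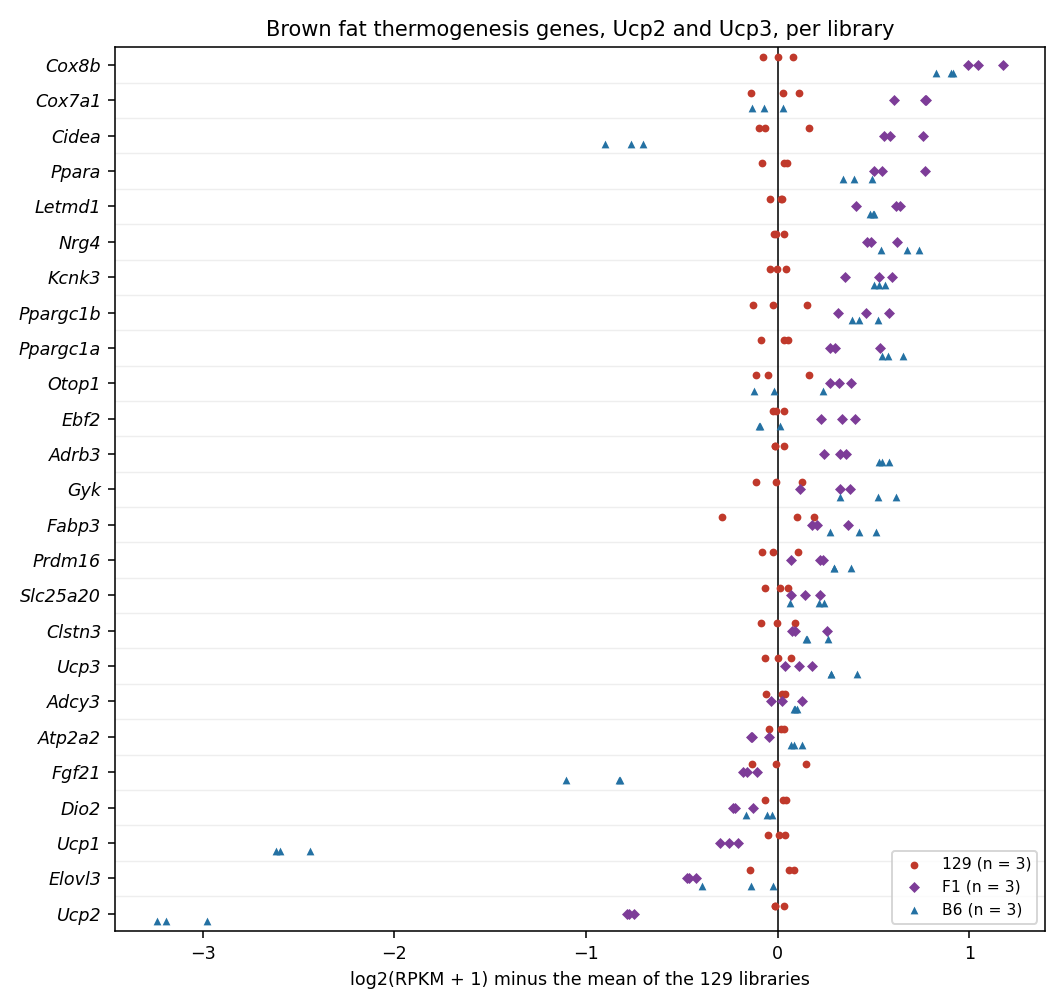
The 23 tested brown fat thermogenesis genes with Ucp2 and Ucp3, ordered by difference. Each point is a library's log2(RPKM + 1) minus the mean of the 129 libraries (n = 3 per group); F1 points for Cox8b, Cox7a1 and Cidea lie right of the 129 and B6 points, and those for Ucp1 lie just left of 129 while the B6 points are far to the left.

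The NFI factors did not rise. Nfia (chromosome 4, 97248634 to 97785567 on the forward strand, mm9) was at 8.15, 8.35 and 7.44 RPKM in 129 and 7.78, 7.02 and 8.01 in F1, values that overlap (log2 difference -0.06 ± 0.06, adjusted p = 0.494, exact permutation p = 0.5, two-sided). Nfib was at 10.9, 10.4 and 10.3 in 129 and 9.19, 9.13 and 10.2 in F1 (log2 difference -0.14 ± 0.05, adjusted p = 0.0838) and also missed the threshold. Nfic, at 16.6, 17.9 and 16.1 in 129 and 14.3, 14.9 and 15.4 in F1, and Nfix, at 23.2, 23.8 and 22.7 in 129 and 19.3, 21.2 and 21.7 in F1, passed in the lower direction with adjusted p of 0.0336 and 0.0455 and differences of -0.17 ± 0.05 and -0.16 ± 0.05. The call for Nfic was lost without F1 replicate 1, F1 replicate 2, 129 replicate 1 or 129 replicate 2, and that for Nfix when any library except F1 replicate 3 was left out. Of 26 tested transcription factors of adipogenesis, which include these 4, 5 were higher and 5 lower, with a median of 0.03. The share was 19.2% in each direction, against 12.4% higher and 16.7% lower over all genes. The number higher was 3 without F1 replicate 3, and the number lower was 2 without F1 replicate 2 or 129 replicate 2 and 3 without F1 replicate 1, 129 replicate 1 or 129 replicate 3. Pparg, the master regulator of fat cell formation, was at 94.8, 90.7 and 101 RPKM in 129 and 117, 104 and 109.7 in F1 (log2 difference 0.20 ± 0.06, adjusted p = 0.0255), a call that was lost without F1 replicate 1, F1 replicate 3, 129 replicate 1 or 129 replicate 2. The zinc finger gene Zfp521 was lower (5.58, 5.09 and 5.27 in 129 and 3.69, 4.25 and 4.05 RPKM in F1, log2 difference -0.34 ± 0.06, adjusted p = 0.00245).

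Most beige and depot markers and most general adipocyte genes did not pass the test. Of 13 tested beige and depot markers, 2 were higher (15.4%, against 12.4% over all genes), 3 were lower (23.1%, against 16.7%) and 8 did not pass. With no filter on low values 4 were higher. The 2 higher genes were both transporters of small neutral amino acids: Slc7a10 was at 3.73, 4.39 and 3.98 RPKM in 129 and 8.35, 9.23 and 9.26 in F1 (log2 difference 0.98 ± 0.06, adjusted p = 7.51e-06), and Slc36a2 at 218, 226 and 227 in 129 and 258, 251 and 253 in F1 (log2 difference 0.18 ± 0.04, adjusted p = 0.0126), a call lost without 129 replicate 1. The fatty acid transporter Slc27a1 was lower (-0.34), and so was the homeobox gene Lhx8 (-0.35). Of 30 tested genes of mature adipocytes, 8 were higher (26.7%), 6 were lower (20%) and 16 did not pass, with a median of 0.04, and the 6 became 3 without 129 replicate 2. Rbp4, the retinol carrier, rose from 163, 195 and 188 RPKM to 324, 342 and 313 (log2 difference 0.84 ± 0.07, adjusted p = 3.05e-05), Plin5, which ties lipid droplets to mitochondria, from 26.8, 31.8 and 32.1 to 51.99, 45.1 and 45.7 (log2 difference 0.64 ± 0.08, adjusted p = 0.000331), and Retn, the hormone resistin, from 139, 146 and 155 to 246, 208 and 203 (log2 difference 0.57 ± 0.08, adjusted p = 0.000575). Rbp4 and Plin5 in F1 lay above every B6 value as well (173, 218 and 164 for Rbp4 and 25.4, 26.9 and 25.1 for Plin5). Cidec, which enlarges lipid droplets, fell from 2233, 2182 and 2349.6 to 1727, 1662 and 1635 (log2 difference -0.43 ± 0.06, adjusted p = 0.000973). The hormone leptin, Lep, was near the lower limit at 1.43, 1.41 and 1.398 in 129 and 1.03, 1.06 and 1.19 in F1 (log2 difference -0.21 ± 0.06, adjusted p = 0.0329), and its call was lost when any library except F1 replicate 3 was left out.

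Subunits of oxidative phosphorylation and citric acid cycle genes that passed the test were higher in F1. Of 73 tested subunits of oxidative phosphorylation, 38 were higher in F1 (background 12.4%), none was lower and 35 did not pass, with a median of 0.21. Members that passed include Sdha, the catalytic subunit of succinate dehydrogenase, at 345, 347 and 360.3 RPKM in 129 and 471, 446 and 459 in F1 (log2 difference 0.39 ± 0.05, adjusted p = 0.000355), and Ndufc2, a subunit of complex I, at 156, 162 and 172 in 129 and 263, 224 and 219 in F1 (log2 difference 0.52 ± 0.07, adjusted p = 0.000779). In both genes the F1 and 129 values did not overlap. The count of 38 fell to 21 without 129 replicate 2, to 23 without 129 replicate 1 and to 21 with no filter on low values. Of 25 citric acid cycle genes, 15 were higher (60%, against 12.4% over all genes) and none lower (against 16.7%), with a median of 0.19. The largest rise among them was in Idh2, the mitochondrial isocitrate dehydrogenase that makes NADPH, from 31.7, 35.7 and 33.99 RPKM to 59.1, 58.1 and 53.7 (log2 difference 0.74 ± 0.06, adjusted p = 1.93e-05). Pdk4, the kinase that restrains pyruvate dehydrogenase, rose from 43.6, 44.2 and 45.7 to 57.9, 59.7 and 64.4 (log2 difference 0.44 ± 0.05, adjusted p = 0.000197). Of 17 genes of mitochondrial biogenesis 9 were higher (52.9%, against 12.4% over all genes) and 1 lower (5.88%, against 16.7%). The lower gene was the PGC-1-related coactivator Pprc1 (-0.20), a call lost without F1 replicate 2, F1 replicate 3 or 129 replicate 2. Sirt3, the mitochondrial deacetylase, rose by 0.48 ± 0.05 and Esrra, a nuclear receptor that works with PGC-1α, by 0.31 ± 0.06.

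Nnt, the transhydrogenase of the inner mitochondrial membrane, of which C57BL/6J mice are known to carry an allele that lacks exons, was lower in F1. It was at 3.501, 3.24 and 3.28 RPKM in 129, 1.72, 1.99 and 1.85 in F1 and 1.86, 1.79 and 2.11 in B6 (log2 difference -0.61 ± 0.06, adjusted p = 9.26e-05), so the F1 values lay below all 129 values and overlapped those of B6.

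Genes of fatty acid oxidation that passed were mostly higher, and those of fatty acid synthesis went both ways. Of 27 tested genes of fatty acid oxidation 13 were higher (48.1%, against 12.4% over all genes) and 4 lower (14.8%, against 16.7%). The median was 0.14, and the 13 became 8 without 129 replicate 1. Eci1, an isomerase for unsaturated fatty acids, rose from 103, 107 and 111 RPKM to 169, 164 and 158 (log2 difference 0.61 ± 0.05, adjusted p = 2.40e-05), Acadm, the medium-chain acyl-CoA dehydrogenase, from 348, 345 and 362 to 496, 472 and 474 (log2 difference 0.45 ± 0.05, adjusted p = 0.000154), and Etfa, which passes their electrons on, from 267, 266 and 278 to 380.4, 354 and 363 (log2 difference 0.43 ± 0.05, adjusted p = 0.000192). Cpt1a, the liver form of the carnitine palmitoyltransferase at the gate of oxidation, fell from 14.9, 13.2 and 13.4 to 9.73, 10.4 and 10.2 (log2 difference -0.42 ± 0.05, adjusted p = 0.000496). Of 22 genes of fatty acid synthesis 4 were higher (18.2%, against 12.4% over all genes) and 8 lower (36.4%, against 16.7%). The 8 became 5 without 129 replicate 2, and the 4 became 2 without 129 replicate 1 or 129 replicate 3. The central enzymes of the pathway were among the lower: Acly, which makes cytosolic acetyl-CoA, at 877, 862 and 827 RPKM in 129 and 656, 718 and 680.4 in F1 (log2 difference -0.32 ± 0.06, adjusted p = 0.00271), Acaca, which makes malonyl-CoA, at 255, 248 and 240.3 in 129 and 175, 194 and 201 in F1 (log2 difference -0.38 ± 0.06, adjusted p = 0.00115), and Fasn, fatty acid synthase, at 851, 931 and 821 in 129 and 656, 677 and 677 in F1 (log2 difference -0.37 ± 0.06, adjusted p = 0.0018). Their B6 means were 944, 245 and 830.2, so in all 3 the F1 mean was below that of both strains. Scd1, a desaturase that held the most reads in each library, rose by 0.38 ± 0.09, a call lost without 129 replicate 1 or 129 replicate 3.

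Among 19 tested genes of lipolysis and adrenergic signalling 9 were higher (47.4%, against 12.4% over all genes) and 4 lower (21.1%, against 16.7%). Among the receptors, Adrb3, the adipocyte β-adrenergic receptor, rose from 36.1, 36.2 and 37.4 RPKM to 43.4, 46.1 and 46.95 (log2 difference 0.31 ± 0.04, adjusted p = 0.000883) and Npr1, the natriuretic peptide receptor that makes cyclic GMP, from 1.08, 1.36 and 1.42 to 2.56, 2.27 and 2.31 (log2 difference 0.57 ± 0.07, adjusted p = 0.000531). Npr3, the receptor that clears natriuretic peptides, fell from 31.4, 29.3 and 30.7 to 20.6, 22.04 and 23.1 (log2 difference -0.46 ± 0.05, adjusted p = 0.000205). For both natriuretic peptide receptors the 129 and F1 values did not overlap.

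The list with the largest share of members higher in F1 among those with at least 10 tested members was glycolysis and hypoxia. Of its 28 tested genes 23 were higher (82.1%, against 12.4% over all genes), 2 were lower (7.14%, against 16.7%) and 3 did not pass. The median was 0.28. Gpi1, which interconverts the hexose phosphates, was at 526, 583 and 558 RPKM in 129 and 837, 813 and 803 in F1 (log2 difference 0.56 ± 0.06, adjusted p = 0.000104). Bnip3, a mitophagy receptor of the outer mitochondrial membrane, was at 598, 632 and 610.3 in 129 and 881, 869.6 and 852 in F1 (log2 difference 0.50 ± 0.05, adjusted p = 0.000115), and Vegfa, the vascular growth factor, at 114, 124 and 121 in 129 and 153, 163 and 165 in F1 (log2 difference 0.42 ± 0.05, adjusted p = 0.0003195). The B6 values of these 3 genes were 516, 657 and 509.7 for Gpi1, 579.7, 698 and 570.2 for Bnip3 and 111, 133 and 106 for Vegfa, and every F1 value was above them. Ldhb, the heart form of lactate dehydrogenase, rose by 0.44 ± 0.05, and the glycolytic genes Aldoc, Pgk1 and Hk2 by 0.50 ± 0.07, 0.40 ± 0.06 and 0.31 ± 0.05. Egln3, an oxygen-dependent prolyl hydroxylase that hypoxia induces, rose by 0.46 ± 0.06. The 2 lower genes were Hif1a, the oxygen-regulated transcription factor (35.3, 32.3 and 30.8 in 129 and 24.6, 25.5 and 26.4 RPKM in F1, log2 difference -0.35 ± 0.06, adjusted p = 0.00154), and the neuronal enolase Eno2 (log2 difference -0.28 ± 0.06, adjusted p = 0.009903). Oxygen and medium at harvest are not in the labels.

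Many genes of this list are known to be induced through hypoxia response elements, whose core reads ACGTG on one strand or CACGT on the other. This core was present in 51.2% of the 41 RefSeq promoters (GRCm38.p6, 250 bases before to 50 after the start, 300 in all) of the 28 list genes that had an entry, out of 29, against 19.6% of all 32851 promoters. The share was 54.5% of 33 promoters among the genes called higher and 66.7% of 3 among those that did not pass. A match is a run of letters and not a site shown to be bound. The promoters of the 4 members with the smallest p among those called higher that had a single entry holding the core are shown 5′ to 3′ on the gene's own strand, with the core in capitals on whichever strand it reads. They lie at chr7:138909457-138909756 (reverse strand), chr12:54203825-54204124 (reverse), chrX:106186850-106187149 (forward) and chr6:82774405-82774704 (reverse), a later build than the mm9 of the expression values.
Bnip3: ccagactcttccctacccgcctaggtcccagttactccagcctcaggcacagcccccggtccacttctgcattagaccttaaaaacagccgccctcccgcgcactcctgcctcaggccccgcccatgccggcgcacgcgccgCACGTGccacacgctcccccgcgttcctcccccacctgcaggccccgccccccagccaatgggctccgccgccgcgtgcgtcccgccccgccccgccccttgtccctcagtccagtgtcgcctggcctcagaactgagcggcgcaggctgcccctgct
Egln3: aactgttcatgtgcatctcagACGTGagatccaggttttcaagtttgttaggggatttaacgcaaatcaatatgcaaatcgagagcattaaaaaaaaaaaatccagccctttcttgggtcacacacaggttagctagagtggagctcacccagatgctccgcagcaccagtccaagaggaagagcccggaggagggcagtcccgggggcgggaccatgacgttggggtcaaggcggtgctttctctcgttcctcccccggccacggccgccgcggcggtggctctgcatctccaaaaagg
Pgk1: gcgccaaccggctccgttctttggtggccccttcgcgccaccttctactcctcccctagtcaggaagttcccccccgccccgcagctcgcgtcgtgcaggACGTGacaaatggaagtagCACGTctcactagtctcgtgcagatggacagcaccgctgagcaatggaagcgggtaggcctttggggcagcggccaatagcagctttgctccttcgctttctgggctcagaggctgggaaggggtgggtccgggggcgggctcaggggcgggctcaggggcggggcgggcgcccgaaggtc
Hk2: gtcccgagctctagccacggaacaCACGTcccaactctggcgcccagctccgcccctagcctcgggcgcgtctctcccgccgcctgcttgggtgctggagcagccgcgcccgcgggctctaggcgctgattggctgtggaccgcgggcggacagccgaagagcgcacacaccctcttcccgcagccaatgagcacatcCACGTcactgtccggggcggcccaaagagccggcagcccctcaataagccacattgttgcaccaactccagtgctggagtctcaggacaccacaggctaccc
Bnip3 and Egln3 each held 1 such stretch, and Pgk1 and Hk2 each held 2. In Bnip3 the stretch is the palindrome CACGTG, which reads as the core on both strands. For comparison, AAGGTCA, the letters that estrogen-related receptors such as the product of Esrra prefer, was present in 12.1% of 66 promoters of the oxidative phosphorylation list and in 4.72% of all promoters, on either strand. It was present in 3.12% of the 32 promoters of members called higher and 18.2% of the 33 of members that did not pass.

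Genes of the extracellular matrix list that passed the test were all lower in F1. Col28a1 and Podnl1, given above among the largest rises, are not in this list. Of 36 tested members 22 were lower in F1 (61.1%, against 16.7% over all genes), none was higher (against 12.4%) and 14 did not pass. The median was -0.27. Without F1 replicate 1, with sample weights or with voom, 2 members were higher. Lum and Dcn encode proteoglycans that organise collagen fibrils. Lum, lumican, had the largest fall within the list, from 23.6, 20.9 and 19.1 RPKM in 129 to 8.35, 7.85 and 7.68 in F1 (log2 difference -1.31 ± 0.07, adjusted p = 2.47e-06). Dcn, decorin, went from 444, 406 and 403 to 211, 202 and 196 (log2 difference -1.04 ± 0.05, adjusted p = 2.29e-06). Thbs2, a thrombospondin, fell from 147, 134 and 127 to 72.7, 75.7 and 75.7 (log2 difference -0.85 ± 0.06, adjusted p = 1.02e-05) and Mmp2, a matrix metalloproteinase, from 138, 134 and 130.3 to 82.7, 86.9 and 79.8 (log2 difference -0.69 ± 0.05, adjusted p = 1.17e-05). The fibrillar collagen genes Col3a1 and Col1a2 fell, with differences of -0.71 ± 0.07 and -0.55 ± 0.07. The basement membrane collagens Col4a1 and Col4a2 had differences of 0.09 and -0.04 and did not pass.

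Markers of adipocyte progenitors that passed moved the same way. Of 13 tested markers 8 were lower (61.5%, against 16.7% over all genes), none was higher (against 12.4%) and 5 did not pass. The median was -0.28. The highest difference among the 13 was 0.26, and with the replicate block 1 marker was higher. The summed level of the progenitor markers was 1617 to 1667 RPKM in the 129 libraries and 1343 to 1488 in F1. Pdgfra, the growth factor receptor that marks the precursors, was at 87.02, 79.3 and 77.4 RPKM in 129 and 38.6, 45.4 and 41.04 in F1 (log2 difference -0.95 ± 0.07, adjusted p = 1.23e-05), and Cd34, a surface sialomucin, at 24.3, 23.3 and 23.1 in 129 and 11.2, 11.8 and 11.4 in F1 (log2 difference -0.98 ± 0.04, adjusted p = 8.89e-07). In Cd34 the F1 values were below those of B6 too (17.03, 16.2 and 17.1). Vim, Itgb1 and Ly6a, which many stromal cells share, did not pass (-0.04, -0.10 and -0.21). In such bulk RNA, fewer cells of a type and less RNA per cell cannot be told apart. The part of progenitor RNA in the fall of the matrix genes was not tested. Of 14 tested markers of smooth muscle and myofibroblasts 4 were lower (28.6%, against 16.7% over all genes) and 1 higher (7.14%, against 12.4%). Their sums were 347 to 367 RPKM in 129 and 314 to 336 in F1. Acta2, smooth muscle actin, went from 59.5, 59.7 and 57.9 to 45.9, 47.9 and 46.2 (log2 difference -0.33 ± 0.04, adjusted p = 0.000305). Of the 12 endothelial markers 4 could be tested, with Eng lower (log2 difference -0.99 ± 0.05, adjusted p = 2.17e-06), Pecam1 higher (log2 difference 0.33 ± 0.07, adjusted p = 0.005703) and sums of 19.02 to 19.8 RPKM in 129 and 16.4 to 16.9 in F1.

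**Figure D3:**
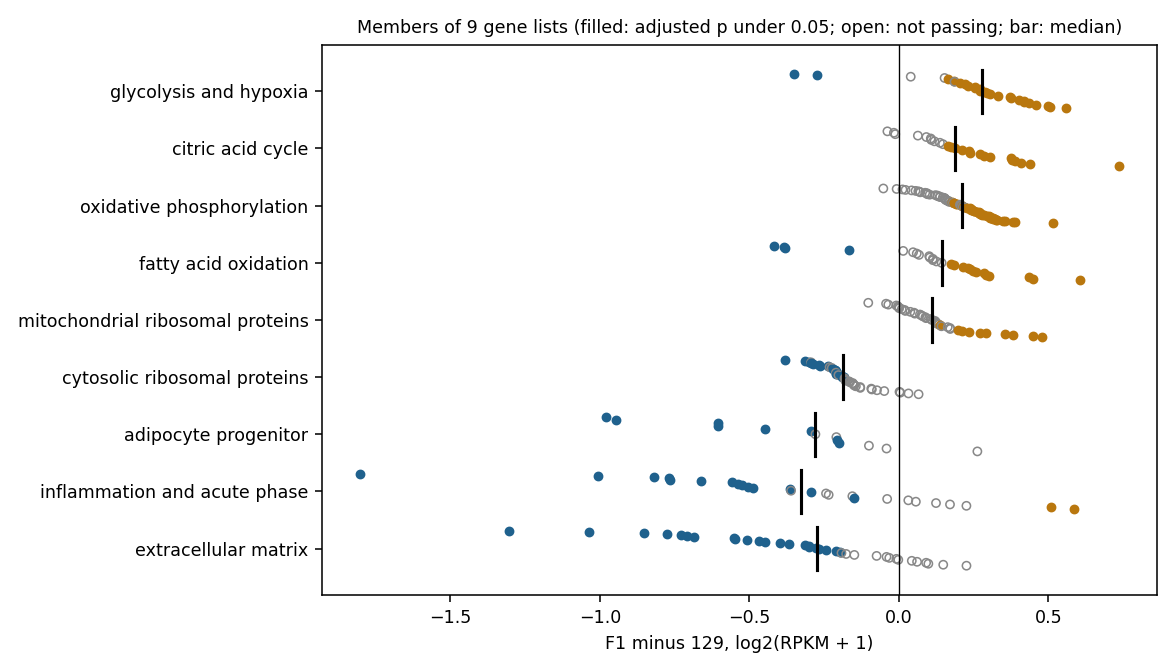
Differences of F1 minus 129 on the log2(RPKM + 1) scale for every tested member of 9 gene lists, with members past an adjusted p of 0.05 filled, others open and the list median as a bar. Most glycolysis, citric acid cycle and oxidative phosphorylation members sit to the right of 0, and extracellular matrix, inflammation and progenitor members to the left, with medians of 0.28 for glycolysis and -0.27 for extracellular matrix.

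Inflammatory and acute-phase genes were mostly lower. Of 26 tested, 14 were lower (53.8%, against 16.7% over all genes) and 2 higher (7.69%, against 12.4%), with a median of -0.33. Beside Il1rn, the fall was large in Orm2, an acute-phase glycoprotein (6.52, 6.08 and 7.25 in 129 and 3.03, 3.05 and 2.31 RPKM in F1, log2 difference -1.01 ± 0.09, adjusted p = 4.26e-05). It was also large in the chemokine Cxcl14 (7.55, 7.33 and 6.86 in 129 and 4.07, 3.98 and 3.49 in F1, log2 difference -0.77 ± 0.06, adjusted p = 2.61e-05) and in Vcam1, an adhesion molecule for leukocytes (43.1, 39.6 and 40.3 in 129 and 24.2, 27.1 and 25.4 in F1, log2 difference -0.66 ± 0.05, adjusted p = 2.69e-05). Complement factor Cfb and the serum amyloid Saa3 fell as well, with differences of -0.56 ± 0.10 and -0.77 ± 0.10. The 2 higher genes were the haemoglobin scavenger Hp (0.59 ± 0.07) and the pentraxin Ptx3 (0.51 ± 0.08). Of 12 tested macrophage markers 2 were higher (16.7%, against 12.4% over all genes) and 1 lower (8.33%, against 16.7%). The summed level of the macrophage markers was 39.3 to 70.3 RPKM in 129 and 55.0 to 76.8 in F1. The 1 that fell was Trem2, a lipid receptor, from 14.4, 14.5 and 17.3 RPKM to 8.53, 7.78 and 7.56 (log2 difference -0.87 ± 0.07, adjusted p = 3.26e-05), with 0.952, 1.09 and 1.004 in B6. The complement gene C1qc and the Fc receptor chain Fcer1g passed in the other direction (0.0437 and 0.0189 as adjusted p), and both calls were lost without F1 replicate 2. The call for C1qc was also lost without F1 replicate 3, 129 replicate 1 or 129 replicate 3. Over the single libraries left out, the number of higher macrophage markers ran from 0 without F1 replicate 2 to 5 without 129 replicate 2. It was 0 with no filter on low values or a minimum of 5 RPKM and 8 with the replicate block. The part of macrophage RNA in these differences was not tested.

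Of 27 tested interferon genes 5 were lower, none was higher and 22 did not pass. The share lower, 18.5%, was near the 16.7% over all genes. The 5 were Xaf1 (9.04, 9.301 and 9.09 in 129 and 7.11, 4.71 and 3.97 RPKM in F1, log2 difference -0.73 ± 0.14, adjusted p = 0.00493), Ifi205 (48.6, 41.8 and 43.1 in 129 and 29.5, 25.9 and 25.7 in F1, log2 difference -0.70 ± 0.07, adjusted p = 9.67e-05), Gbp2, Ifi204 and Iigp1. The call for Iigp1 was lost without F1 replicate 2, F1 replicate 3, 129 replicate 1 or 129 replicate 3. F1 replicate 1 had the highest F1 value of Xaf1, Ifi205, Gbp2 and Ifi204, and without it 14 members of the list were lower. With the B6 libraries in the fit as well, 1 member, Ifi205, was lower, and the calls for Xaf1, Gbp2 and Ifi204 were lost. Of 15 tested genes of class I antigen presentation 4 were lower (26.7%, against 16.7% over all genes) and none higher (against 12.4%). The number lower was 1 without F1 replicate 3 or 129 replicate 3 and 2 without 129 replicate 1 or 129 replicate 2. The largest fall there was in Cd1d2, a lipid-presenting molecule, with 14.4, 14.6 and 14.8 RPKM in 129, 8.102, 6.44 and 6.48 in F1 and 0.157, 0.168 and 0.0597 in B6. Because Cd1d1 is a near-identical copy, the split of reads between them is uncertain, and likewise among members of the Ifi200, Gbp and Trim families.

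Lipoprotein and sterol genes held some of the larger differences. Apoe, the apolipoprotein that fat cells secrete, fell from 1096, 1092 and 1179.7 RPKM in 129 to 684, 645 and 596 in F1 (log2 difference -0.81 ± 0.07, adjusted p = 3.03e-05), with 118, 109 and 129.5 in B6, and Apoc1 from 194, 193 and 203 to 100.1, 108 and 96.1 (log2 difference -0.95 ± 0.05, adjusted p = 2.75e-06), with 53.1, 51.7 and 56.1. Abcg1, which exports cholesterol, rose from 4.73, 5.36 and 5.59 to 11.96, 11.9 and 12.03 (log2 difference 1.06 ± 0.06, adjusted p = 2.56e-06), with 12.04, 14.3 and 12.2 in B6. Of the 15 tested members of that list 4 were higher (26.7%, against 12.4% over all genes) and 3 lower (20%, against 16.7%). Of 24 tested genes of cholesterol synthesis 6 were higher (25%) and 3 lower (12.5%). The 6 became 3 without 129 replicate 2 or without 129 replicate 3. The last steps moved in opposite directions: Sc5d, the lathosterol oxidase, rose from 51.8, 47.7 and 52.6 RPKM to 101, 108 and 105 (log2 difference 1.03 ± 0.05, adjusted p = 1.67e-06), with 211, 201 and 212 in B6, while Dhcr7, which follows it, fell from 81.6, 76.04 and 77.6 to 48.9, 46.1 and 48.97 (log2 difference -0.70 ± 0.05, adjusted p = 8.48e-06), with 84.5, 70.8 and 84.1 in B6. Sc5d lies within 500 kb of Sorl1. Of the 3 tested genes within that distance of Sorl1, Sc5d was higher, Tbcel was lower (log2 difference -0.19 ± 0.05, adjusted p = 0.0175) and 1 did not pass.

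Retinoid genes went both ways. Of 16 tested 4 were higher (25%, against 12.4% over all genes) and 8 lower (50%, against 16.7%), with a median of -0.15. The retinol oxidising Adh1 and the carrier Rbp4 rose, as given above, while Aldh1a2, the cellular retinol binder Rbp7 (-0.88 ± 0.13) and the second alcohol dehydrogenase Adh7 (4.204, 4.58 and 4.16 in 129 and 2.56, 2.69 and 2.43 RPKM in F1, log2 difference -0.58 ± 0.06, adjusted p = 9.31e-05) fell. Adh7 is within 500 kb of Adh1 and moved against it. Under a minimum of 5 RPKM the 8 lower genes became 5, with fewer genes tested.

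Ribosomal protein genes of the cytosol and of mitochondria that passed went in opposite directions. Of 44 tested cytosolic ribosomal protein genes 18 were lower (40.9%, against 16.7% over all genes) and none higher (against 12.4%), with a median of -0.19. Rps20 stood at 547, 549 and 581 RPKM in 129 and 436, 471 and 383 in F1 (log2 difference -0.38 ± 0.07, adjusted p = 0.00471). The count of 18 varied with the setting: it was 5 without 129 replicate 1, 6 without 129 replicate 3, and 7 without F1 replicate 3. It was 10 with no filter on low values and 28 with voom. Copies among pseudogenes make each of these levels uncertain. Of 39 tested mitochondrial ribosomal protein genes 10 were higher (25.6%, against 12.4% over all genes) and none lower (against 16.7%). The median was 0.11, and the 10 became 6 without 129 replicate 2. Mrps12 rose from 24.9, 25.6 and 25.3 RPKM to 39.01, 35.6 and 32.6 (log2 difference 0.48 ± 0.06, adjusted p = 0.000426) and Mrpl9 from 38.8, 37.9 and 39.1 to 51.3, 49.96 and 50.7 (log2 difference 0.38 ± 0.04, adjusted p = 0.000109).

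Of 27 tested cell cycle genes 11 were lower (40.7%, against 16.7% over all genes) and 5 higher (18.5%, against 12.4%). Without F1 replicate 3 these became 6 and 3. Under a minimum of 5 RPKM, with fewer genes tested, 1 was lower, and without 129 replicate 1 the number higher was 3. The summed level of the list was 379 to 384 RPKM in 129 and 409 to 429 in F1. Mki67, the proliferation antigen, was at 1.39, 1.32 and 1.27 RPKM in 129 and 0.803, 0.8901 and 0.986 in F1 (log2 difference -0.30 ± 0.07, adjusted p = 0.00848) and the mitotic kinase Plk1 at 1.62, 1.87 and 1.42 in 129 and 0.869, 1.09 and 1.03 in F1 (log2 difference -0.40 ± 0.08, adjusted p = 0.00535), while Pttg1 of the same list rose. In antioxidant genes, Gpx3, the secreted glutathione peroxidase, fell from 702, 716 and 706 to 491, 493 and 467 (log2 difference -0.55 ± 0.05, adjusted p = 5.05e-05), and Hmox1, haem oxygenase, rose from 150.2, 162 and 154 to 217, 206 and 198 (log2 difference 0.41 ± 0.05, adjusted p = 0.000377). Of 21 members of that list 3 were higher (14.3%, against 12.4% over all genes) and 6 lower (28.6%, against 16.7%). The 6 became 2 without F1 replicate 2, 129 replicate 1 or 129 replicate 3.

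**Figure D4:**
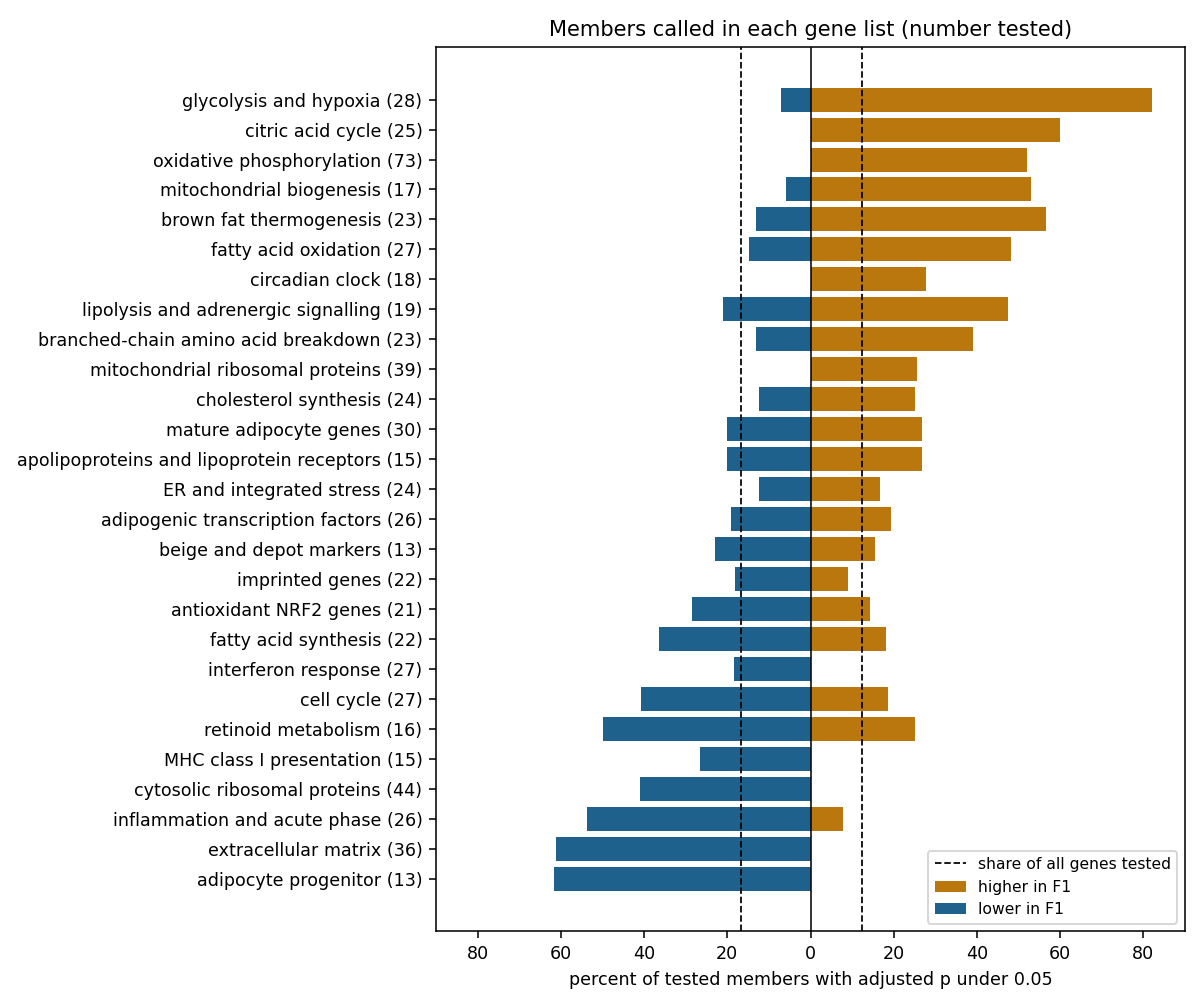
Percent of the tested members of each gene list that were higher (right) or lower (left) in F1 at an adjusted p under 0.05, with the number tested in brackets and dashed lines at the shares over all genes, 12.4% higher and 16.7% lower. Glycolysis and hypoxia genes reach furthest to the right, with 23 of 28 higher, and adipocyte progenitor markers and extracellular matrix furthest to the left, with 8 of 13 and 22 of 36 lower.

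Genes expressed in a single parental strain were read separately, to see how much of a strain's level the F1 cells had. These were chosen as below 0.1 RPKM in every library of a strain and at least 1 in every library of the other, so the parental difference is a description with no test. Of the 10 genes on in 129 and off in B6, the F1 mean was a median 0.467 of the 129 mean, and the shares of the 9 plotted ran from 0.135 to 0.616. Tpsab1, a tryptase of mast cells, was at 51.9, 61.1 and 54.8 RPKM in 129, 29.9, 23.2 and 25.04 in F1 and 0, 0 and 0.0624 in B6. The mast cell markers Tpsb2 and Ms4a2 were at 0 in all 6 libraries, and Cpa3, another mast cell protease, was at 1.97, 1.38 and 1.74 in 129 and 1.79, 2.11 and 2.11 in F1 and did not pass (adjusted p = 0.214). Ifi202b, an interferon-inducible gene of the Ifi200 family, was at 24.8, 22.5 and 21.9 in 129 and 12.1, 10.8 and 9.45 in F1. The guanylate-binding gene Gbp2b was at 4.32, 3.599 and 3.93 in 129 and 1.89, 1.47 and 1.54 in F1. The lowest share was that of Mill1, an MHC class I-like gene, at 0.135 (2.08, 1.33 and 1.36 in 129 and 0.233, 0.241 and 0.168 RPKM in F1).

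In the other direction, 8 genes were off in 129 and on in B6, and their F1 mean was a median 0.322 of the B6 mean, with a range of 0.133 to 0.436. The antiviral TRIM family genes Trim12a (chromosome 7, 111448411 to 111464009 on the reverse strand, mm9) and Trim30d (chromosome 7, 111618529 to 111656363 on the reverse strand) are neighbours. Trim12a was at 0, 0.0461 and 0 RPKM in 129, 1.69, 1.96 and 1.85 in F1 and 7.64, 4.15 and 4.02 in B6, and Trim30d at 0, 0 and 0 in 129, 1.83, 1.74 and 1.29 in F1 and 8.44, 3.97 and 3.89 in B6. For both, B6 replicate 1 was well above the other B6 libraries, and the F1 shares were 0.348 and 0.298 with it and 0.449 and 0.412 without it. Without B6 replicate 1 the median over the 8 genes was 0.382. Unc5a, a netrin receptor, had an F1 share of 0.436, and Akr1c18, a steroid dehydrogenase, of 0.133, both at F1 levels under 1 RPKM and not tested. In all, 5 genes were below 0.1 RPKM in every 129 library and at least 1 in every F1 library (Trim12a, Trim30d, the predicted genes Gm13152 and 3110007F17Rik and the small nucleolar RNA Snord53), and 0 genes had the reverse pattern. Counts of 0 reads and fitted differences near an RPKM of 0 carry little precision, so no fold is given for these genes.

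**Figure D5:**
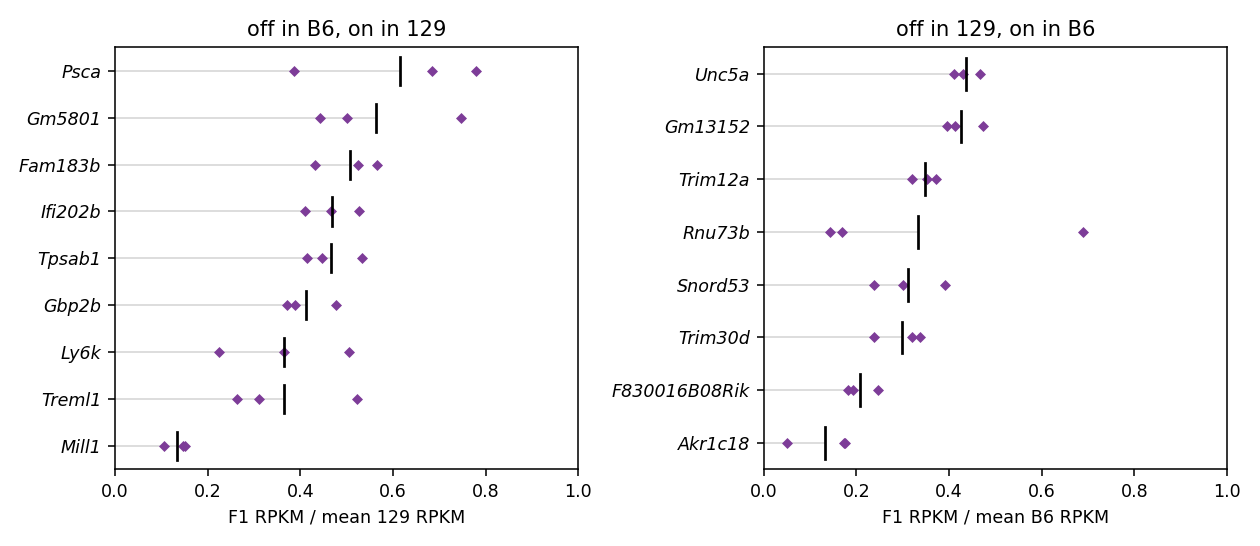
F1 level as a share of the mean RPKM of the strain that expresses the gene, for 9 of the 10 genes off in B6 (left) and 8 genes off in 129 (right). Diamonds are the 3 F1 libraries and the black bar is their mean; the bars run from 0.135 to 0.616 on the left and from 0.133 to 0.436 on the right.

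On the X chromosome, 9.88% of 344 tested genes were higher and 19.5% lower, against 12.4% and 16.7% overall. Heph was at 19.3, 18.2 and 18.4 RPKM in 129, 5.84, 6.57 and 6.11 in F1 and 3.95, 3.58 and 3.71 in B6, and its neighbour within 500 kb, the orphan receptor Gpr165, at 2.302, 2.595 and 2.14 in 129, 0.371, 0.51 and 0.654 in F1 and 0.244, 0.229 and 0.279 in B6 (log2 difference -1.15 ± 0.09, adjusted p = 1.86e-05). The predicted gene 3110007F17Rik, also X-linked, was at 0 in each 129 library, at 1.12, 1.22 and 1.45 in F1 and at 1.27, 1.42 and 0.565 in B6. For Heph and Gpr165 the F1 values were nearer to B6 than to 129, and for 3110007F17Rik they overlapped them. Among tested genes within 500 kb of the 12 largest rises, counted once per named gene, 30 of 127 were higher (23.6%) and 29 lower (22.8%), and within 500 kb of the 12 largest falls 16 of 87 were higher (18.4%) and 13 lower (14.9%). Trim12a and Trim30d share neighbours, so some genes count in both. Each of them, itself chosen as a large rise, also counts as a higher neighbour of the other. Of the Y-linked genes, Ddx3y was at 30.3, 27.8 and 26.6 RPKM in 129 and 31.8, 30.7 and 35.2 in F1 (log2 difference 0.20 ± 0.06, adjusted p = 0.0419) and Kdm5d at 4.16, 4.59 and 4.24 in 129 and 4.702, 5.29 and 5.698 in F1 (log2 difference 0.22 ± 0.07, adjusted p = 0.0335). The first call was lost without F1 replicate 1, F1 replicate 3, 129 replicate 2 or 129 replicate 3, and the second without F1 replicate 2, F1 replicate 3, 129 replicate 1 or 129 replicate 3. Uty did not pass (adjusted p = 0.373). Per chromosome, the share of genes called ran from 23.2% on chromosome 19 to 33.9% on chromosome 1, leaving out the Y chromosome with its 4 tested genes.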

How the data were processed

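The deposited values were RPKM, which the authors computed from reads aligned with STAR to mm9, per the submitters' processing notes. Which counter and annotation they used is not given in the sources used here. The values keep steps of 1 read, from which each library's depth was recovered. The mm9 build is a C57BL/6J genome, and the loss of 129 reads in alignment was not measured. There were no mitochondrially encoded genes, and cells of 5 unnamed columns were not used.

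Genes reaching an RPKM of 1 in 3 or more of the 6 libraries were tested on log2(RPKM + 1), which understates folds of low genes, with limma 3.58.1 (R 4.3.3, mean-variance trend, two-sided, Benjamini-Hochberg over all tested genes, threshold 0.05). The procedure was also run on simulated data that gave all genes and both groups the same spread beyond sampling. That run does not measure the error rate in these libraries. Alternatives were a pseudocount of 0.1, other filters, rescaling, all 9 libraries, sample weights, a replicate block, voom on recovered reads and leaving out each library.

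The members and gene lists were chosen with earlier results of these data known. Named were the 12 largest rises and falls (absolute log2 difference of at least 1, no overlap, no predicted genes or small RNAs), a set of identity genes, up to 4 list members with the smallest p, genes on in 1 strain, and up to 3 neighbours within 500 kb. Some genes under these rules are not reported here. Other list members named were chosen after their values were seen.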

Additional observations from a re-analysis of the deposited data

How the results depend on the processing

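No named gene that passed the test changed sign under the 14 alternatives. The median difference over all genes tested, -0.01, was 0.0022 after median-of-ratios rescaling and 0.00023 with a minimum of 5 RPKM. The number of genes called, 3297, was 3290 with a pseudocount of 0.1, 3238 with no filter on low values, 2484 with a minimum of 5 RPKM (7905 genes tested), 3332 after median-of-ratios rescaling, 3171 with all 9 libraries, 3462 with sample weights and 3461 with voom. Leaving out single libraries gave 2405 to 2954 calls. The replicate numbers did not pair the libraries: the correlations of same-numbered deviations were -0.04, 0.17 and -0.20. With the replicate number as a block, 2803 genes were called, of which 2717 were among the 3297. Of 198 called genes among the named, 165 stayed called in all settings. Prdm16 (0.18) and Fabp4 passed with voom, at 0.33 and 0.22. Counts within lists varied more: 37 of 80 list counts moved by over 1.5 times in at least 1 setting, most of them counts of a few genes. With the block, cytosolic ribosomal protein genes lower in F1 were 10 and cholesterol synthesis genes higher were 3. Genes under an RPKM of 1 in most libraries were not tested. The causes of these shifts were not tested.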

Other observations

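Clock genes that passed were higher in F1. Of 18 tested, 5 were higher (27.8%, against 12.4% over all genes) and none lower (against 16.7%), with a median difference of 0.10. The 5 became 3 without 129 replicate 1 or without 129 replicate 3. Bhlhe40, a repressor that light and hypoxia induce, was at 27.5, 29.8 and 27.1 RPKM in 129 and 34.8, 35.1 and 35.8 in F1 (log2 difference 0.32 ± 0.05, adjusted p = 0.00101). The time of day at harvest is not in the labels.

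Of 23 tested genes of branched-chain amino acid breakdown, 9 were higher (39.1%, against 12.4% over all genes) and 3 lower (13.0%, against 16.7%). Bckdhb, a subunit of the dehydrogenase that commits these amino acids to oxidation, fell from 187, 183 and 198 RPKM to 147, 147 and 138 (log2 difference -0.39 ± 0.05, adjusted p = 0.000382), with 88.3, 79.9 and 95.6 in B6, and Bcat1, the cytosolic aminotransferase, from 3.403, 2.97 and 2.86 to 1.95, 1.93 and 1.89 (log2 difference -0.48 ± 0.06, adjusted p = 0.000563). Auh, a hydratase of leucine breakdown, rose from 31.9, 31.1 and 30.8 to 44.2, 41.1 and 39.5 (log2 difference 0.40 ± 0.05, adjusted p = 0.000344).

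Among imprinted genes, of which a cell uses the copy from a given parent, 2 of 22 tested were higher and 4 lower. These shares, 9.09% and 18.2%, were near the 12.4% and 16.7% over all genes. Mest, a marker of fat cell enlargement, was at 1.79, 2.07 and 1.64 RPKM in 129, 3.71, 3.69 and 3.53 in F1 and 6.57, 5.59 and 7.03 in B6 (log2 difference 0.71 ± 0.07, adjusted p = 6.50e-05), and Ndn, necdin, at 21.5, 22.3 and 22.02 in 129, 16.6, 15.3 and 14.1 in F1 and 17.8, 17.1 and 16.8 in B6 (log2 difference -0.49 ± 0.06, adjusted p = 0.000281). The count of lower genes was 2 without F1 replicate 3 and 1 without 129 replicate 1, and that of higher genes was 1 without any 1 of F1 replicate 2, F1 replicate 3 or the 129 libraries. Of 24 tested genes of endoplasmic reticulum stress 4 were higher (16.7%, against 12.4% over all genes) and 3 lower (12.5%, against 16.7%). The number higher was 2 without F1 replicate 2 or 129 replicate 1, and the number lower was 1 without 129 replicate 2. Ero1l, which oxidises nascent proteins, was at 185, 202 and 191 in 129 and 241, 250.1 and 258 in F1 (log2 difference 0.37 ± 0.05, adjusted p = 0.000605) and Asns, asparagine synthetase, at 63.5, 66.7 and 65.5 in 129 and 85.99, 79.4 and 79.5 in F1 (log2 difference 0.32 ± 0.05, adjusted p = 0.000984).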
